A study of Mus musculus with 5 samples.

Results

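The receptor chains that pair with the common gamma chain, together with the kinase that binds it, were described in follicular regulatory T (Tfr) cells with and without C/EBP alpha. The 9 genes, Il2ra, Il2rb, Il2rg, Il4ra, Il7r, Il21r, Il9r, Il15ra and Jak3, were taken by gene name from 57186 annotated mouse gene IDs, and all 9 passed the filter on low values. Tfr cells are Foxp3-expressing CD4 T cells of the B cell follicle that restrain antibody responses. They were sorted from spleen as live CD4+ cells positive for Foxp3, CXCR5, PD-1 and ICOS, 21 days after treatment of the mice with imiquimod, a compound that activates the receptor TLR7. The WT group (3 libraries) came from mice with a GFP reporter of Foxp3. The Cebpa_KO group (2 libraries) came from Foxp3-Cre Cebpa-flox/flox mice, in which Cre under Foxp3 control deletes Cebpa in regulatory T cells. The groups therefore also differed in their Foxp3 allele, and imiquimod was given to all of them. Each library was a pool of several mice, whose ages were not used here, and every p-value refers to the spread between such pools.

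The gamma chain, encoded by Il2rg, is the signalling subunit shared by the receptors for IL-2, IL-4, IL-7, IL-9, IL-15 and IL-21. Each cytokine is recognised through partner chains, most of them private and Il2rb shared by IL-2 and IL-15. The gamma chain brings the kinase JAK3 to the complex while the partner brings JAK1, and the kinases then activate STAT5, STAT6 or STAT3. Regulatory T cells depend on IL-2, which they capture with the high-affinity alpha chain Il2ra (CD25), and Tfr cells are known to carry less CD25 than other regulatory T cells.

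Levels below are deposited TPM divided by 1 scaling factor per library (scaled TPM). TPM is per transcript length, so levels of different genes can be set side by side. Aligned depth was 6.76 to 7.08 gigabases per library. Cebpa stood at 12.8 to 17.7 in WT, against 0.317 and 0.550 in Cebpa_KO, which matched the labels. Foxp3 stood at 83.0, 107 and 105 in WT, against 6.74 and 5.58 in Cebpa_KO (limma, adjusted p = 0.00115), although it was a sort marker. Of 10 markers of the sorted cells 7 were called lower in Cebpa_KO and none higher (limma, adjusted p under 0.05). Over all genes tested 9.82% were called lower and 9.93% higher. The 10 markers summed to 8735 to 9527 in WT, against 6608 to 6623 in Cebpa_KO. The sexes of the pools followed the groups: Xist was at most 0.0220 in WT, against 11.4 and 10.7 in Cebpa_KO, so sex and genotype cannot be told apart. The heat shock gene Hspa1a stood at 690 in WT replicate 3 and below 1 in the other WT libraries, against 1147 and 1238 in Cebpa_KO.

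The gamma chain itself was the most abundant member. Il2rg (ENSMUSG00000031304, chromosome X, 100307984 to 100311861, minus strand; build mm39 here and for each gene below) stood at 2116, 1769.9 and 2287 in WT replicates 1, 2 and 3, against 1751 and 2086 in Cebpa_KO replicates 1 and 2. The groups overlapped, and their lowest libraries were nearly level. Its log2 fold change, here and below Cebpa_KO minus WT on log2(scaled TPM + 1), was -0.10 with a 95% interval from -0.48 to 0.28 (limma, Benjamini-Hochberg adjusted p = 0.666). Il2rg lies on the X chromosome and the pools differed in sex, whose part in its level was not tested.

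In WT the order of levels ran from Il2rg down over Il2rb (646.8 ± 22.3, SD, n = 3), Il21r (557 ± 54.3), Jak3 (142 ± 34.8), Il4ra (72.3 ± 10.8), Il2ra (71.0 ± 5.57), Il15ra (29.3 ± 7.23) and Il7r (20.0 ± 1.56) to Il9r (4.11 ± 1.76). Only Il4ra and Il2ra overlapped among neighbours in this order. The place of Il15ra depends on the unit. By per-base coverage, divided here by each library's depth in gigabases, it stood below Il7r in all 5 libraries. It was at 1.09 to 1.57 against 5.58 to 6.50 in WT, and at 1.55 and 1.74 against 4.504 and 8.69 in Cebpa_KO. Il2rg ranked on average at the percentile 99.8 of the 16254 genes tested, Il2rb at 98.7, Il21r at 98.5, Il2ra at 80.2, Il7r at 58.0 and Il9r at 24.8. Tfr RNA therefore held the shared chain, the IL-2 and IL-15 beta chain and the IL-21 receptor far above the alpha chain of IL-2 and the IL-7 and IL-9 receptors. In Cebpa_KO the order was the same except that Il2ra (48.6 ± 8.08, n = 2) stood above Il4ra (41.2 ± 1.51), which by coverage held in Cebpa_KO replicate 2 only. By TPM no neighbours in the order overlapped there, although Il21r (482 and 495) came close to Il2rb (496 and 547).

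**Figure D1:**
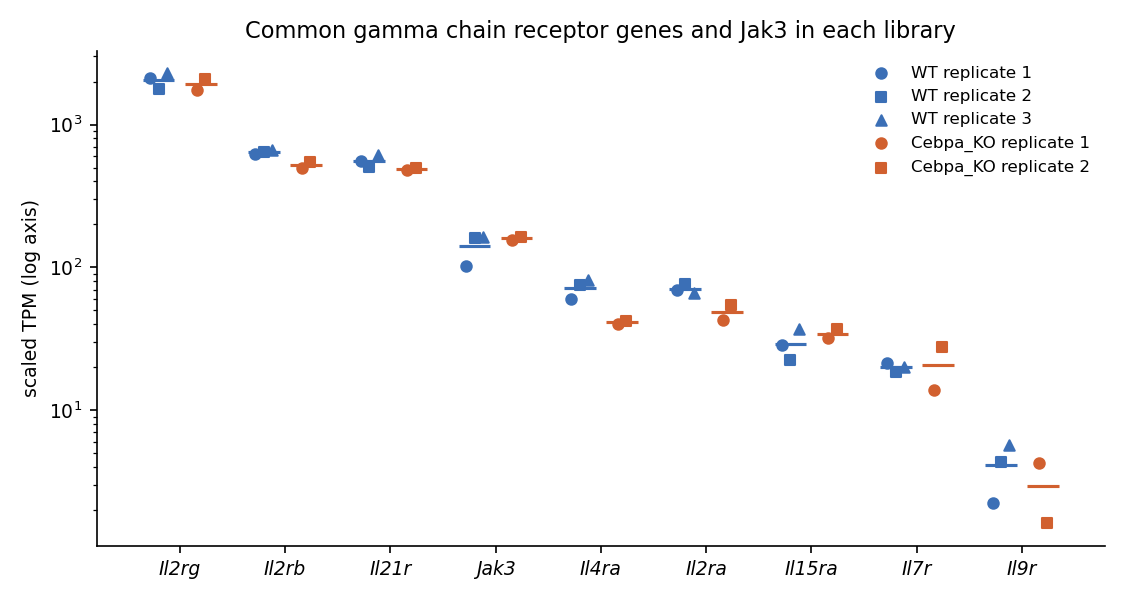
Scaled TPM (log axis) of the 9 genes in each library, ordered by their WT mean, with 3 WT and 2 Cebpa_KO libraries as points and group means as bars. Il4ra and Il2ra are lower in both Cebpa_KO libraries than in every WT library, and the 2 Cebpa_KO values of Il7r, 14.0 and 27.7, lie on either side of all WT values.

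Il4ra and Il2ra were lower in Cebpa_KO, and none of the 9 genes was called higher. Of all genes tested, 9.82% were called lower and 9.93% higher (limma, adjusted p under 0.05), and 2 of 9 is too small a count to be set apart from that background. At an unadjusted p under 0.05, 3 of the 9 were lower and 0 higher. Of all 16254 genes tested, 6113 reached that threshold in either direction, so these 3 are not set apart from the background either. The median log2 fold change of the 9 genes was -0.19, beside 0.01 over all genes tested. The groups did not overlap in 4 of the 9, Il2ra, Il2rb, Il4ra and Il21r, all with the WT libraries higher, a smaller share than the 56.7% of all genes tested whose groups did not overlap. The largest difference was that of Il4ra.

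Il4ra encodes the chain that binds IL-4 and, with a partner outside this family, IL-13. Il4ra (ENSMUSG00000030748, chromosome 7, 125151292 to 125178646, plus strand) stood at 60.5, 75.0 and 81.5 in WT replicates 1, 2 and 3, against 40.1 and 42.3 in Cebpa_KO replicates 1 and 2. All WT libraries were above both Cebpa_KO libraries, which lay close together. The mean was 43.0% lower in Cebpa_KO, and the log2 difference was -0.79, standard error 0.14 (limma, adjusted p = 0.0224). A two-sided exact permutation test gave p = 0.1, the smallest that 3 libraries against 2 allow. The adjusted p was 0.0752 without WT replicate 2, 0.146 without Cebpa_KO replicate 1, 0.129 without Cebpa_KO replicate 2 and 0.0839 with no filter, and lay under 0.05 in the other 13 of 17 alternatives, with the difference between -0.91 and -0.70 in all 17.

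Il2ra encodes CD25, which gives the IL-2 receptor its high affinity and does not signal on its own. Il2ra (ENSMUSG00000026770, chromosome 2, 11647618 to 11698004, plus strand) stood at 69.8, 77.1 and 66.1 in WT replicates 1, 2 and 3, against 42.9 and 54.3 in Cebpa_KO replicates 1 and 2. Every WT library was again above both Cebpa_KO libraries. The mean was 31.6% lower, with a log2 fold change of -0.54 and a standard error of 0.13 (limma, adjusted p = 0.0438; exact permutation p = 0.1). Foxp3, a sort marker whose allele differed between the groups, was 16.0 times lower in the same libraries. Its part in the Il2ra level was not tested. A gene model on the same strand within Il2ra, Gm37881, stood at 4.23 to 9.18, and its reads cannot be told apart from those of Il2ra. The call was lost without WT replicate 1, WT replicate 2, Cebpa_KO replicate 1 or Cebpa_KO replicate 2 (adjusted p of 0.0925, 0.116, 0.224 and 0.0983), with unscaled TPM (0.0559), no filter (0.132), no trend (0.0617), assembled loci (0.0709) and coverage in place of TPM (0.0654). The difference stayed between -0.71 and -0.37 in all 17 alternatives.

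Il2rb, the beta chain shared by the IL-2 and IL-15 receptors, lay just outside the threshold. Il2rb (ENSMUSG00000068227, chromosome 15, 78363456 to 78379471, minus strand) stood at 624, 648 and 669 in WT replicates 1, 2 and 3, against 496 and 547 in Cebpa_KO replicates 1 and 2, with no overlap. The log2 fold change was -0.31, with a 95% interval from -0.52 to -0.10 (limma, adjusted p = 0.0570). It passed with a filter at a TPM of 5 (0.0478), quantile normalization (0.0380), array weights (0.0341) and coverage in place of TPM (0.0467). Markers of NK cells and innate lymphoid cells, which also carry Il2rb, summed to 47.6 to 68.7 in WT, against 15.7 to 21.7 in Cebpa_KO. Of these 5 markers 1 was called lower, Klrb1c, none was at 0 in all libraries, and their part in the Il2rb level was not tested. In bulk RNA, fewer cells of a type and less RNA per cell cannot be told apart.

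Il15ra binds IL-15 and presents it to neighbouring cells. Il15ra (ENSMUSG00000023206, chromosome 2, 11710101 to 11739128, plus strand) stood at 28.8, 22.4 and 36.8 in WT replicates 1, 2 and 3, against 32.0 and 36.8 in Cebpa_KO replicates 1 and 2. The groups overlapped, with a log2 fold change of 0.25 and a 95% interval from -0.29 to 0.79 (limma, adjusted p = 0.445). Its level is less certain than those of the others. The ratio of its deposited coverage to its TPM was 0.103 to 0.115 of the highest such ratio in each library, beside 0.407 to 0.978 for the other 8 genes, and what sets this low ratio was not tested.

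Il21r, the receptor of the follicular helper cytokine IL-21, was among the most abundant receptors in both groups. Il21r (ENSMUSG00000030745, chromosome 7, 125202601 to 125232742, plus strand) stood at 552, 506 and 614 in WT replicates 1, 2 and 3, against 482 and 495 in Cebpa_KO replicates 1 and 2. The lowest WT library was only slightly above the Cebpa_KO libraries. The log2 fold change of -0.19 did not pass (95% interval from -0.45 to 0.08, limma, adjusted p = 0.255).

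Il7r encodes the alpha chain of the IL-7 receptor, which marks resting T cells and is low on regulatory T cells. Il7r (ENSMUSG00000003882, chromosome 15, 9505874 to 9530262, minus strand) stood at 21.5, 18.4 and 20.1 in WT replicates 1, 2 and 3, but at 14.0 and 27.7 in Cebpa_KO replicates 1 and 2. The WT libraries were close together, and the Cebpa_KO libraries lay below and above all of them. The log2 fold change was -0.02 with a 95% interval from -0.73 to 0.69 (limma, adjusted p = 0.966). It was 0.45 without Cebpa_KO replicate 1 and -0.48 without Cebpa_KO replicate 2, and neither passed (adjusted p of 0.202 and 0.186).

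Il9r, the IL-9 receptor, was the least abundant member. Il9r (ENSMUSG00000020279, chromosome 11, 32137541 to 32150279, minus strand) stood at 2.25, 4.34 and 5.75 in WT replicates 1, 2 and 3, against 4.25 and 1.62 in Cebpa_KO replicates 1 and 2. The groups overlapped widely, and the log2 fold change of -0.40 had a 95% interval from -1.48 to 0.68 (limma, adjusted p = 0.534), the widest of the 9. Without Cebpa_KO replicate 2 the difference was 0.10, and without Cebpa_KO replicate 1 it was -0.90.

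Jak3 encodes the kinase bound to the gamma chain. Jak3 (ENSMUSG00000031805, chromosome 8, 72128940 to 72143219, plus strand) stood at 102, 162 and 162 in WT replicates 1, 2 and 3, against 156 and 163 in Cebpa_KO replicates 1 and 2. WT replicate 1 was apart from the other 4 libraries, which lay close together. The log2 fold change was 0.20 with a 95% interval from -0.36 to 0.76 (limma, adjusted p = 0.546), and -0.02 without WT replicate 1. Insl3, a hormone gene annotated on the same strand over the end of Jak3 (72141858 to 72143219), stood at 61.0, 78.5 and 81.8 in WT, against 73.0 and 82.0 in Cebpa_KO. Reads of this shared end cannot be told apart. The sum of both genes was 216 ± 45.9 in WT, against 237 ± 11.3 in Cebpa_KO. Assembled signal was given to Jak3 by its overlap with the annotated genes. It was at 147, 170.2 and 200.3 in WT, against 194 and 211 in Cebpa_KO.

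**Figure D2:**
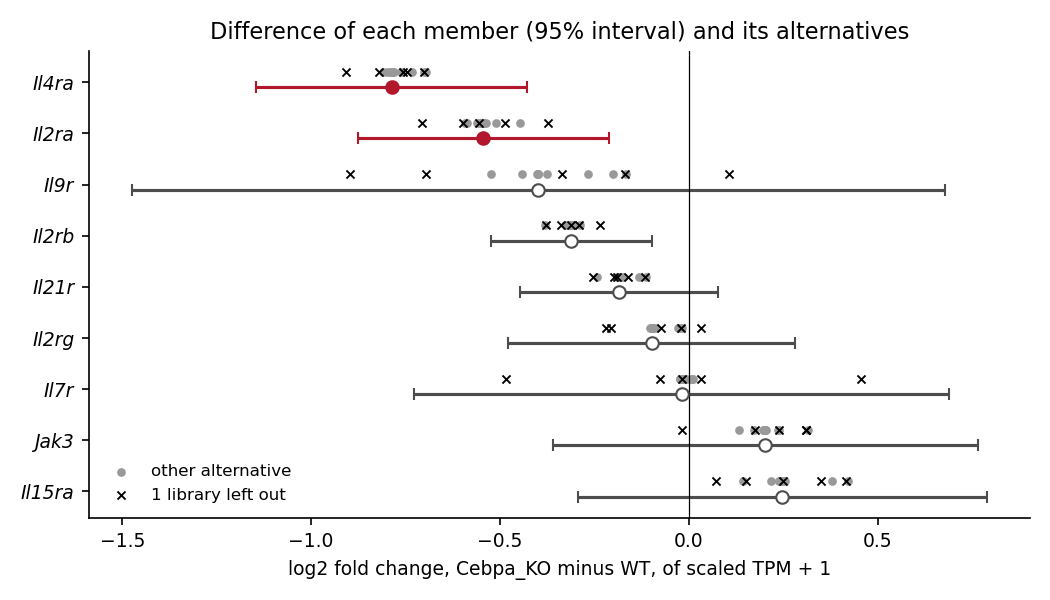
Log2 fold change of each gene, Cebpa_KO minus WT on log2(scaled TPM + 1), as a circle with its 95% interval (filled where the adjusted p is under 0.05), above which grey dots and crosses show the alternatives and the fits without 1 library. Il4ra, Il2ra, Il2rb and Il21r are below 0 in all 17 alternatives and Il15ra is above 0, whereas Il7r runs from -0.48 to 0.45 when a Cebpa_KO library is left out.

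Ratios within a library do not depend on the scaling between libraries. For every 100 units of Il2rg there were 2.86, 4.24 and 3.56 of Il4ra in WT, against 2.29 and 2.03 in Cebpa_KO. Il2ra had 3.30, 4.35 and 2.89 in WT, against 2.45 and 2.60 in Cebpa_KO. Both partner chains were thus lower relative to the gamma chain in both Cebpa_KO libraries. Since Il2rg itself differed little (log2 fold change -0.10), these ratios largely restate the calls. Il2rb also had a lower ratio, at 29.5, 36.6 and 29.2 in WT, against 28.3 and 26.2 in Cebpa_KO, with less than 1 unit between the nearest libraries. The ratios of Il21r (26.1 to 28.6 in WT, 23.7 and 27.5 in Cebpa_KO) and Il7r (0.878 to 1.04 in WT, 0.797 and 1.33 in Cebpa_KO) overlapped. The ratio of the alpha to the beta chain of the IL-2 receptor, per 100 units of Il2rb, was 11.2, 11.9 and 9.89 in WT, against 8.65 and 9.93 in Cebpa_KO, which overlapped. Over the 8 receptor chains together, Il2rg held 59.4% ± 2.31 of the summed scaled TPM in WT, against 62.3% ± 1.57 in Cebpa_KO, while Il4ra held 1.74%, 2.40% and 2.16% in WT, against 1.40% and 1.28% in Cebpa_KO.

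**Figure D3:**
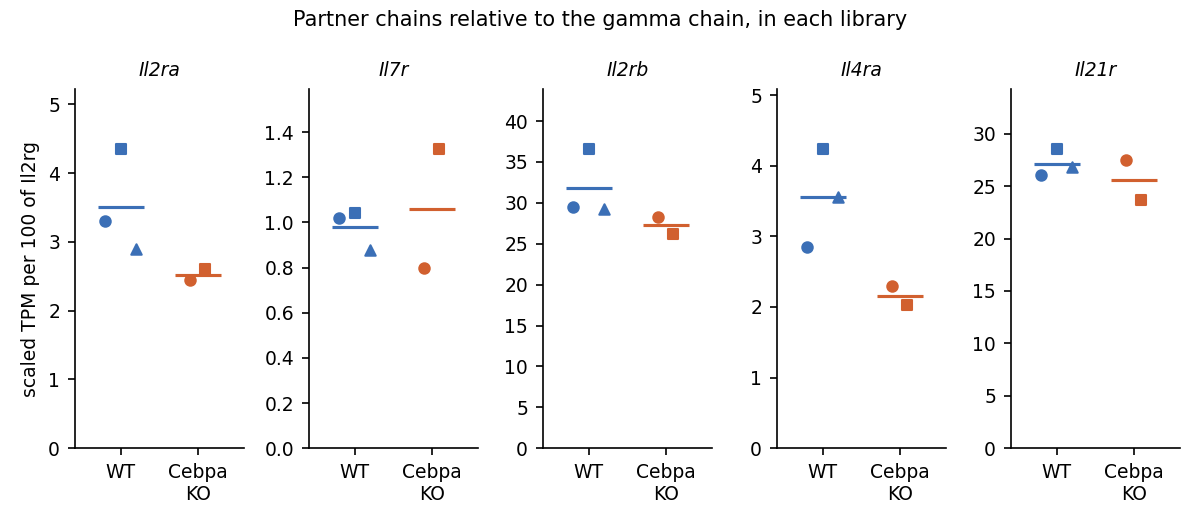
Scaled TPM of 5 partner chains per 100 units of Il2rg in each library (points, with the marker shape giving the replicate number) and group means (bars), on axes that start at 0. The Cebpa_KO values of Il4ra, 2.29 and 2.03, lie below all WT values, while those of Il7r lie on either side of them.

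The 2 genes called lower each have another member near them on the same strand. Il2ra and Il15ra are 12.1 kilobases apart on chromosome 2, and Il4ra and Il21r are 24.0 kilobases apart on chromosome 7. Per 100 units of its neighbour Il21r, Il4ra stood at 10.95, 14.8 and 13.3 in WT, against 8.32 and 8.54 in Cebpa_KO. Per 100 units of Il15ra, Il2ra stood at 242, 344 and 179.6 in WT, against 134 and 147 in Cebpa_KO. The pairs were set by position, and since 1 gene of each was called lower and the other not, these ratios restate the calls. The level of Il15ra is also the least certain of the 9.

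Promoter windows of 8 of the 9 genes, from 250 bases before to 50 after the transcription start, were read from RefSeq on build GRCm38.p6, which is not the build of the deposited tables. Il2rb was not matched. They were searched on both strands for TTCNNNGAA, the STAT site, which is its own reverse complement, and for TTNNGNAA (TTNCNNAA on the other strand), a loose form of the C/EBP site. Of 32851 windows of the same length 8.30% held the STAT motif and 40.7% the C/EBP motif, which is thus common. The 8 genes had 9 windows, since Il15ra was listed both at chr2:11705043-11705342 and at chr2:11705462-11705761. Among the genes studied here the STAT motif was in the window of Il7r only. The C/EBP motif was in that of Il7r and in the latter window of Il15ra, but not in the former. The windows of the 2 genes called lower are shown with that of Il7r, in lower case with motif matches in capitals. They lie at chr7:125552021-125552320 on the plus strand for Il4ra, at chr2:11642542-11642841 on the plus strand for Il2ra and at chr15:9529827-9530126 on the minus strand for Il7r.
Il4ra: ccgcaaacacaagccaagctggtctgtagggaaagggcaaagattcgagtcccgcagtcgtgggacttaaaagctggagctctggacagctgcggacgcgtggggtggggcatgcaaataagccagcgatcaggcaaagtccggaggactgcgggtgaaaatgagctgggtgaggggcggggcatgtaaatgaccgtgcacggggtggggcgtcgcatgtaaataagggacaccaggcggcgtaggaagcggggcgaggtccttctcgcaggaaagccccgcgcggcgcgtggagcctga
Il2ra: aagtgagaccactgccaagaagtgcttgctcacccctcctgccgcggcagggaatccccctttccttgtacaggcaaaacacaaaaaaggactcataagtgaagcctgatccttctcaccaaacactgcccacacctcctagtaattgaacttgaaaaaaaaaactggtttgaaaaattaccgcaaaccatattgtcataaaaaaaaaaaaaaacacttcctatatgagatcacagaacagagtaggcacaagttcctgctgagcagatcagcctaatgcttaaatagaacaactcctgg
Il7r: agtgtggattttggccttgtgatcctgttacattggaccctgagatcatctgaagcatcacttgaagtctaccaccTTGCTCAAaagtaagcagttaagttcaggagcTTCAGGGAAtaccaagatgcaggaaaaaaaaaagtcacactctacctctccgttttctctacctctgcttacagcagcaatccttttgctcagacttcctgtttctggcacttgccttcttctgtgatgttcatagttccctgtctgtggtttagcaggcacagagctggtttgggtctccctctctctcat
The C/EBP match of Il7r begins 174 and its STAT match 142 bases before the start. The windows of Il4ra and Il2ra hold neither motif, which says only that these letters are not in these 300 bases.

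Of the 6 cytokines that use the gamma chain, only Il21 and Il4 passed the filter on low values. Il21 stood at 14.7, 10.4 and 12.9 in WT, against 56.2 and 50.4 in Cebpa_KO, a log2 fold change of 2.00 (limma, adjusted p = 0.00550). Il21 therefore rose, while the difference of its receptor did not pass the test. With either Cebpa_KO library left out, no cytokine passed. Il4 stood at 16.9, 13.5 and 7.60 in WT, against 17.6 and 26.4 in Cebpa_KO, a difference that missed the threshold (adjusted p = 0.169). Il2, the cytokine that regulatory T cells themselves make little of, was at 0.363 to 1.13 in all 5 libraries. Il15 stood at 0.148 or less in WT, against 0.791 and 1.86 in Cebpa_KO, Il7 at 0.183 or less in WT, against 0.482 and 0.606 in Cebpa_KO, and Il9 was listed at 0 throughout.

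Of 2 tested chains that pair with a member outside the gamma chain complex, 1 fell, beside 9.82% of all genes tested. Il13ra1, which joins Il4ra in the receptor for IL-13, lies on the X chromosome. The pools differed in sex, whose part in the Il13ra1 level was not tested. Il13ra1 fell from 6.52, 8.01 and 10.4 in WT to 4.43 and 4.00 in Cebpa_KO (log2 fold change -0.82, limma, adjusted p = 0.0494). This call was lost without WT replicate 2 or either Cebpa_KO library (0.120, 0.191 and 0.222) and in 5 other alternatives. Crlf2, which joins Il7r in the receptor for TSLP, was at 68.8, 71.9 and 86.7 in WT, against 59.5 and 62.2 in Cebpa_KO, a difference that missed the threshold (adjusted p = 0.132). Il13ra2 was listed at 0 in all libraries.

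Among signal transducers of these receptors, 2 of 12 tested fell and 1 rose, with a median log2 fold change of -0.04. These counts are too small to be set apart from the 9.82% lower and 9.93% higher among all genes tested. Stat5a, one of a pair of near copies that carry the IL-2 signal, rose from 41.7, 37.4 and 45.3 in WT to 60.8 and 76.2 in Cebpa_KO (log2 fold change 0.71, limma, adjusted p = 0.0262). Stat5b, the other copy, fell from 107, 136 and 127 to 86.9 and 86.2 (-0.50, adjusted p = 0.0429). The coding sequences of the pair are similar, and how their reads were split was not tested. Pik3r1, a regulatory subunit of PI3 kinase, fell by 0.56 on the log2 scale (adjusted p = 0.0273). Jak1, the kinase of the partner chains, stood at 314, 365 and 412 in WT, against 276 and 279 in Cebpa_KO, a difference that missed the threshold (adjusted p = 0.0930). Stat6 and Stat3 also did not pass. None of the 12 passed with WT replicate 2 or either Cebpa_KO library left out, or with no filter, 2 fell and none rose without WT replicate 1, and 1 fell and 2 rose without WT replicate 3.

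Feedback inhibitors of cytokine signalling included 3 rises and no fall among 9 tested, with a median of 0.47. Of all genes tested 9.93% rose and 9.82% fell. Socs1, which blocks JAK kinases, rose from 32.0, 31.9 and 34.3 in WT to 60.5 and 56.1 in Cebpa_KO (log2 fold change 0.81, limma, adjusted p = 0.00772). Socs3 rose from 41.9, 47.3 and 66.2 to 92.4 and 87.2 (0.81, adjusted p = 0.0459), and Ptpn1, a phosphatase of JAK kinases, from 219, 209 and 184 to 368 and 360 (0.84, adjusted p = 0.00941). Cish and Socs2, which STAT5 induces, stood at 25.7 to 45.6 and 6.02 to 8.87 in WT, against 41.8 and 63.0, and 7.08 and 15.8, in Cebpa_KO. Neither passed (adjusted p of 0.304 and 0.321). With either Cebpa_KO library left out none of the 9 passed, and without WT replicate 1 or 2 there were 2 rises, Socs1 and Ptpn1.

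A wider list of 20 genes known to respond to IL-2 and STAT5 went both ways, with 3 falls, 3 rises and a median of -0.12. The shares over all genes tested were 9.82% falls and 9.93% rises. The falls were Foxp3, Il2ra and Ctla4, an inhibitory receptor that went from 476 ± 68.4 to 264 ± 8.03 (limma, adjusted p = 0.0169). Foxp3 was also a sort marker whose allele differed between the groups, and Il2ra is itself a gamma chain family member counted above. The rises were Socs1, Socs3 and Myc, a driver of growth that went from 122 ± 13.3 to 231 ± 28.6 (adjusted p = 0.0128). The survival genes Bcl2 and Mcl1, the kinases Pim1 and Pim2 and the cyclins Ccnd2 and Ccnd3 did not pass. With Cebpa_KO replicate 1 or 2 left out 1 gene of the list fell and none rose, with WT replicate 2 left out or no filter 1 fell and 1 rose, and with WT replicate 1 left out 2 fell and 2 rose.

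Of 7 transcription factors that act on the Il7r gene, 2 fell and none rose, with a median log2 fold change of -0.45. Over all genes tested 9.82% fell and 9.93% rose, and 2 of 7 is a small count. Il7r itself did not pass. Foxo1, which activates Il7r in resting T cells, fell from 79.9, 78.8 and 81.2 in WT to 43.0 and 39.1 in Cebpa_KO (log2 fold change -0.95, limma, adjusted p = 0.00623), and Ets1 fell from 620.1, 729 and 681 to 492 and 496 (adjusted p = 0.0315). Gfi1, a repressor of Il7r, stood at 31.8, 28.9 and 35.5 in WT, against 21.2 and 24.3 in Cebpa_KO (adjusted p = 0.0526). None of the 7 passed with either Cebpa_KO library left out, 1 passed without WT replicate 2 or with no filter, and 3 passed without WT replicate 3.

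Receptor chains of other cytokine families served as a comparison. Of 21 tested, 10 fell and 1 rose, with a median log2 fold change of -0.38, beside 2 falls among the 9 gamma chain genes and their median of -0.19. Among all genes tested 9.82% fell and 9.93% rose. The difference between the lists was not tested, and the lists were chosen with earlier results of these data known. With assembled loci 7 of 23 chains fell and 1 rose. Ifnar2, Il10rb, Ifnar1 and Ifngr2, all among the falls, lie close together on chromosome 16 (91169671 to 91362511). Il6ra, the IL-6 binding chain, fell by 1.35 in log2 units (limma, adjusted p = 0.0344) and Il6st, its signalling chain, by 1.29 (adjusted p = 0.00716). Ifngr1 and Ifngr2, the interferon gamma receptor chains, fell by 0.89 and 0.73 (adjusted p of 0.0194 and 0.0222). Ifnar1, a chain of the type I interferon receptor, fell by 0.85 (adjusted p = 0.00684), and Ifnar2, its other chain, by 0.71 (adjusted p = 0.0293). Il10rb and Il27ra fell by 0.68 and 0.32 (adjusted p of 0.00910 and 0.0403). Tgfbr1 and Il17ra fell by 0.92 and 0.95 (adjusted p of 0.0120 and 0.0146). The rise was Il18r1, by 0.77 (adjusted p = 0.0252). With either Cebpa_KO library left out none of these chains passed, with WT replicate 2 left out 4 fell and none rose, with no filter 5 fell and none rose, and with WT replicate 3 left out 10 fell and 3 rose.

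**Figure D4:**
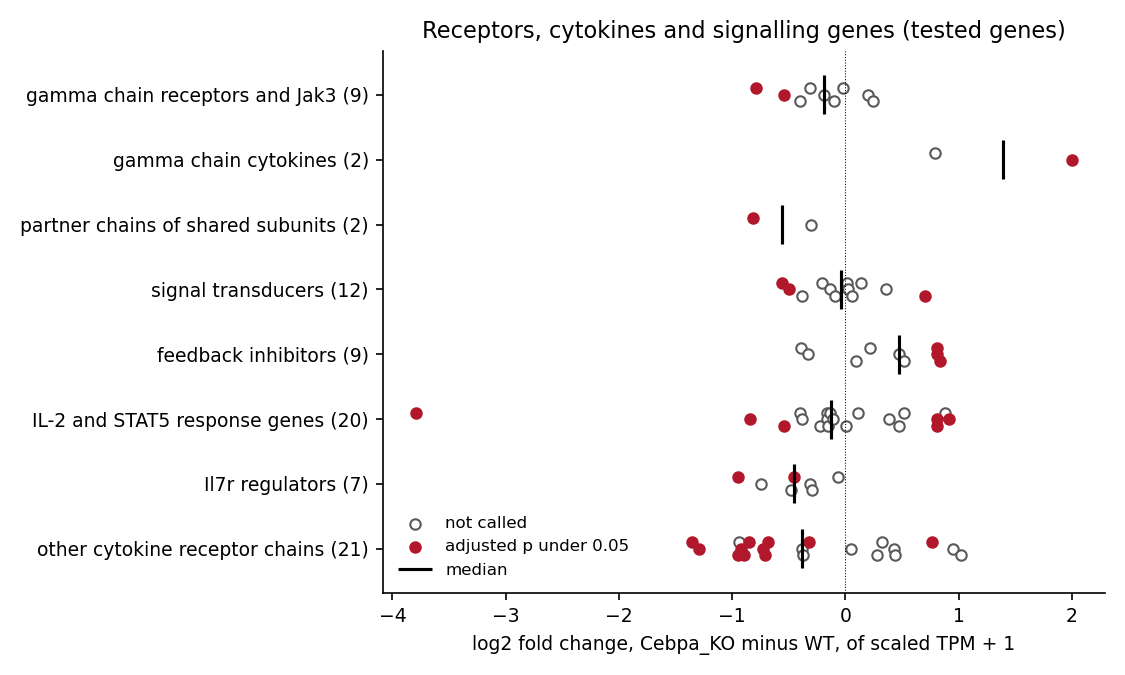
Log2 fold change, Cebpa_KO minus WT on log2(scaled TPM + 1), of every tested gene in 8 lists (number tested in brackets), filled where the adjusted p is under 0.05, with a bar at each list's median. Lists overlap in Il2ra, Cish, Socs1, Socs2 and Socs3, and the point at the far left is Foxp3.

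The genes whose pattern over the 5 libraries lay nearest to the 3 members with the smallest p were sought among 11404 candidates, by the root mean square distance of log2 values centred on each gene's mean. Nearest to Il4ra were Zfp36l1, Esrra, Pacs1, Tsc22d4 and Sesn2, at distances from 0.029 to 0.048. Nearest to Il2ra were D16Ertd472e, Polm, Zfp607a, Slc11a2 and Zfp113, from 0.027 to 0.039. Nearest to Il2rb were Il27ra, Ccser2, Wls, Numbl and Ercc4, from 0.017 to 0.021. Il27ra, a receptor chain for IL-27, stood at 320, 327 and 333 in WT, against 252 and 272 in Cebpa_KO. With 5 libraries in 2 groups, nearness says little beyond a similar size of difference.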

How the data were processed

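Per the submitters' processing notes, STAR 2.7.11b, StringTie 2.1.3b and build mm39 were used. Statements on strandedness, read length or annotation release were not given in the sources used here. Each library has 1 deposited table with TPM, FPKM and per-base coverage, per the file headers. The deposited TPM column was handled as a score, because it lists each signal both as an assembled locus and as an annotated gene. Annotated rows were used. Deposited FPKM and coverage signal gave the depth, and coverage served as an alternative. No counts are in the tables, so no count model or detection limit was used.

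TPM was divided by each library's median ratio to the geometric mean (factors 0.984 to 1.04). Genes reaching a TPM of 1 in 2 or more of the 5 libraries (16254) were tested on log2(scaled TPM + 1) across all genes with limma 3.58.1 in R 4.3.3, with a trend, Benjamini-Hochberg adjustment and a threshold of 0.05. This scale understates changes of low genes. Named genes were all members, the genes of each pathway list that passed, some of the up to 4 next by p, and the nearest 5 genes to each of the 3 members with the smallest p, without gene models, pseudogenes (GENCODE M21) and receptor segments. Members and lists were chosen with earlier results of these data known. Coverage in place of TPM was an alternative chosen after seeing the data. Chains were not compared by protein sequence. Tables were read with pandas 2.3.3 and plotted with matplotlib 3.10.9.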

Additional observations from a re-analysis of the deposited data

How the results depend on the processing

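With 2 Cebpa_KO libraries, calls depend on each of them. Il4ra passed in 13 of 17 alternatives, Il2ra in 8 and Il2rb in 4. Il4ra, Il2ra, Il2rb, Il21r and Il15ra kept their direction in all 17, so a kept direction does not set the called genes apart. Over 151 values of the 9 genes, 134 kept their side of the threshold, 13 no longer passed and 4 newly passed. Of the 9 genes, limma called 0 lower with no filter (3 at an unadjusted p under 0.05) and 1 lower with unscaled TPM, no trend or assembled loci, where the cause was not tested. With 1 library left out, 0 to 2 were called lower. The count was 0 without WT replicate 2, Cebpa_KO replicate 1 or Cebpa_KO replicate 2, where 3, 1 and 4 were lower at an unadjusted p under 0.05. None was called higher in any alternative, with at most 1 at an unadjusted p under 0.05. Among all genes, 3210 were called, 1559 with no filter, 5015 with array weights and 23 to 4002 with 1 library left out (1979 without WT replicate 1, 827 without WT replicate 2, 34 without Cebpa_KO replicate 1 and 23 without Cebpa_KO replicate 2). With the assembled loci, the log2 fold changes of Ifnar2 and Il10rb, which were lower in the main fit, were 4.15 and 4.12. Their standard errors were 2.41 and 2.49, and neither passed (limma, adjusted p of 0.296 and 0.312). These genes are neighbours on the same strand and each assembled locus was given to 1 gene only. The cause of the values was not tested. With the replicate number as a block, 2409 genes were called and the same count of 2 of the 9 was lower. The labels do not say whether equal numbers mark shared animals or days. Deviations from the group means correlated at -0.18 for the libraries numbered 1 and 0.27 for those numbered 2. With 2 Cebpa_KO libraries their deviations are mirror images, so these correlations cannot decide whether libraries were paired. Read counts are not known, so the counting error of Il9r, at 1.62 to 5.75, cannot be given.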

Other observations

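These ratios were chosen after their values were seen. The balance of the 2 STAT5 genes differed between the groups while their sum overlapped. There were 39.1, 27.5 and 35.6 units of Stat5a per 100 of Stat5b in WT, against 70.0 and 88.4 in Cebpa_KO, and the sum of both was 165 ± 14.0 scaled TPM in WT (SD, n = 3) and 155 ± 10.4 in Cebpa_KO (n = 2). How reads of the 2 similar genes were split was not tested.

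The balance of IL-21 and its receptor also differed. There were 2.66, 2.06 and 2.09 units of Il21 per 100 of Il21r in WT, against 11.7 and 10.2 in Cebpa_KO, so ligand RNA stood closer to receptor RNA in both Cebpa_KO libraries. Il15 and Il7, which did not pass the filter on low values, were higher in both Cebpa_KO libraries than in every WT library. Such a lack of overlap was common, at 56.7% of all genes tested, and the levels of both genes were low. Macrophage and monocyte markers, from cells that make IL-15, summed to 84.6 to 147 in WT, against 71.4 to 181 in Cebpa_KO, and dendritic cell markers to 3.13 to 6.26 and 6.13 to 7.16. Mast cell and basophil markers summed to 1.34 to 11.5 in WT, against 12.8 in both Cebpa_KO libraries, and 1 of these 5, Kit, was called higher (0.784 ± 0.383 to 6.43 ± 0.156, limma, adjusted p = 0.00751). Neutrophil markers summed to 8.76 to 70.6 in WT, against 59.1 and 249.9 in Cebpa_KO. Erythroid markers summed to 2128 in Cebpa_KO replicate 1, and plasma cell markers to 9596 in WT replicate 3, the highest of the 5 libraries in each case. Their part in the levels of the receptor genes was not tested.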
